A study of Mus musculus with 7 samples.

Results

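Cholesterol synthesis in the injured mouse colon was followed through 8 genes. Of these, 7 encode enzymes of the pathway (Hmgcs1, Idi1, Fdps, Fdft1, Sqle, Lss and Cyp51) and 1, Insig1, encodes its sterol-dependent brake. The genes were taken as known targets of SREBP2 and found by matching gene identifiers to symbols, 8 of the 18036 genes listed in any library. None of the 8 imports cholesterol, so uptake genes are given beside them from lists of the wider pathway.

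RNA came from colon epithelium scraped off the muscle layer of female hCYP1A mice on C57BL/6, aged 6 weeks, which are humanised for CYP1A, enzymes that activate PhIP. All groups, the control included, were of this genotype. The untreated control pool was labelled normal. DSS mice drank 1.5% dextran sulfate sodium, a polymer that injures the colon lining, for 5 days. PhIP/DSS mice first received 2 doses of 100 mg/kg PhIP, a carcinogen formed in cooked meat, 4 days apart, and DSS in the same way followed. Tissue was taken on day 1, 3 or 7 after DSS, with days 1 and 3 labelled colitis and day 7 partial colitis. Every library was made from equal RNA of 3 mice, and each of the 7 conditions had 1 library, so the spread between mice was not measured. There was no group with PhIP alone.

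Sterols are built from acetyl-CoA through mevalonate, isoprenoid diphosphates and squalene. When membranes of the endoplasmic reticulum run short of cholesterol, the escort protein SCAP carries the transcription factor SREBP2 to the Golgi, where it is cut and freed to switch on genes of sterol synthesis and uptake. INSIG proteins hold SCAP back when sterols are plentiful, and Insig1 is itself a target of the pathway. In the gut, renewing epithelium needs sterols for new membranes.

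Libraries held between 7.66 M reads (control) and 8.78 M reads (DSS day 3, M for 10 to the power 6) uniquely assigned to genes. Markers of epithelium were abundant in all 7, with 7 of 7 detected and a summed level of 7938 RPKM (reads scaled by gene length and library total) in the control and 8145 to 9729 RPKM in the treated libraries. Goblet cell markers (8 of 8) summed to 12574 RPKM in the control, 9252, 16759 and 14756 RPKM on the DSS days and 8073, 15522 and 13295 RPKM on the PhIP/DSS days, lowest on day 1 and highest on day 3 in both arms. Absorptive colonocyte markers (10 of 10) summed to 4840 RPKM in the control. In both arms their sum was highest on day 1 and lowest on day 7. It was 5017 and 3219 RPKM in DSS and 5281 and 2725 RPKM in PhIP/DSS. These sums hid opposite moves of markers, picked here by value. Car1 (control 368 RPKM) was higher on day 1 of DSS and PhIP/DSS (1527 and 1881 RPKM), as was Krt20 (448, then 941 and 1008). Slc26a3 (470, then 175 and 139), Car4 (1326, then 579 and 482) and Slc20a1 (308, then 48.5 and 27.5) were lower. Of goblet markers, Clca1 and Fcgbp were below the control in every treated library. Tff3, Zg16 and Spink4 exceeded it on days 3 and 7 in both arms. Markers of other cells differed between libraries. Neutrophil markers (8 of 8 detected) summed to 2.95 RPKM in the control, where Retnlg, Clec4e and Il1r2 were at 0, and to 32.4 to 1155 RPKM in the treated. Macrophage and monocyte markers (10 of 10) summed to 52.8 RPKM against 107 to 517 RPKM, fibroblast markers (8 of 8) to 16.6 RPKM against 44.8 to 238 RPKM, and proliferation genes (10 of 10) to 159 RPKM against 167 to 328 RPKM. Not every proliferation gene followed that sum. Mki67 (control 36.8 RPKM) was at 43.4 RPKM in DSS day 1 but at 26.2 to 32.4 RPKM in the other treated libraries. Ccnb1 and Tyms were below the control on day 7 in both arms. Fat tissue markers (8 of 8) summed to 16.9 RPKM in the control and 129.8 RPKM in the PhIP/DSS day 1 library, but to between 2.47 and 6.74 RPKM in the other 5 libraries, and Cfd and Adipoq were at 0 in DSS days 3 and 7. The part of these cell types in the results below was not tested. In bulk RNA, fewer cells of a type and less RNA per cell cannot be told apart.

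Promoter sequence was found for 5 of the 8 genes (Hmgcs1, Idi1, Lss, Cyp51 and Insig1) in RefSeq, build GRCm38.p6. The 250 bases before the annotated start are shown for 4 of them, because Hmgcs1 was the only one of the 5 with the classical sterol element, Idi1 and Cyp51 had the most similar profiles over the libraries, and Insig1 was the gene that lay below the control. They come from chr13:119690101-119690350 (+ strand) for Hmgcs1, chr13:8885356-8885605 (+ strand) for Idi1, chr5:4104698-4104947 (- strand) for Cyp51 and chr5:28071162-28071411 (+ strand) for Insig1, each printed 5′ to 3′ on the strand of its gene. Capitals mark the sterol regulatory element TCACNCCAC and the CCAAT box, which reads ATTGG where it lies on the opposite strand.
Hmgcs1: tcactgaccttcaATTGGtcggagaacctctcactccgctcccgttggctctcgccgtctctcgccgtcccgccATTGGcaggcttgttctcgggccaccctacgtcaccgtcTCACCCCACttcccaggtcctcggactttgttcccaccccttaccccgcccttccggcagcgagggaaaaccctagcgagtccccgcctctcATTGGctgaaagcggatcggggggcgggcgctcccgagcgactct
Idi1: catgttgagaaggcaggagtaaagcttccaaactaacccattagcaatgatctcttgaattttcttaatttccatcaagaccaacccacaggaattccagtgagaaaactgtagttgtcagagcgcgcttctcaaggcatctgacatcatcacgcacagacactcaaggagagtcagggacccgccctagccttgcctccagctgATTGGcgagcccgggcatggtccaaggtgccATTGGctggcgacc
Cyp51: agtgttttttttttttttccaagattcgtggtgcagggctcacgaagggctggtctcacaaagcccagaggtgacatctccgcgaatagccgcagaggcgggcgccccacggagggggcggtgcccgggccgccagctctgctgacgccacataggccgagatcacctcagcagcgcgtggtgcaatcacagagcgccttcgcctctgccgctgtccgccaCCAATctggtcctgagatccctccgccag
Insig1: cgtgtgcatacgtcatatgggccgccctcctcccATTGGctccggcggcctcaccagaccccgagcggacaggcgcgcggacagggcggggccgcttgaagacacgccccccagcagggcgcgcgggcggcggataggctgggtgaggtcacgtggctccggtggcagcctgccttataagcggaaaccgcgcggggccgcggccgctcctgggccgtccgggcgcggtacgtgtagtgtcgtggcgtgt
The sterol element, searched on both strands, was present in 1 of the 5 promoters, as TCACCCCAC starting 137 bases before the start of Hmgcs1, and in 1.05% of all 32851 promoters of this length. CCAAT, bound by the SREBP partner NF-Y, was present in 5 of 5 and in 33.8% of all promoters, with 3 matches in Hmgcs1, 2 in Idi1 and 1 in each of the others. GGGCGG, the GC box, was also present in 5 of 5 and in 32.7% of all promoters. The 5 windows held 51.2% (Idi1) to 73.6% (Lss) G or C, against a median of 52.4% over all promoters. The motif shares were not matched for this content. The E-box CACGTG was present in 1 of 5 (Insig1, 101 bases before the start) and in 6.02% of all. The motifs do not contain one another. These are matches of letters in a window, and factor binding was not measured.

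All 8 genes were well detected. In the control library the levels per length ranged from 13.5 RPKM for Lss to 97.2 RPKM for Hmgcs1, with Fdps at 64.3, Sqle at 57.2, Idi1 at 50.6, Insig1 at 44.3, Fdft1 at 40.7 and Cyp51 at 34.3 RPKM. The reads of Fdft1 covered only 55.9% to 59.4% of its listed length, against at least 86.2% for each of the other 7 genes, so its RPKM is less comparable with those of the others, while the same length was used in every library. The end of Fdft1 overlaps Ctsb, a cathepsin gene, over 774 bases in the RefSeq annotation, and whether the counting used strand is not stated in the labels or headers. Ctsb itself was at 104 RPKM in the control and at 117 to 151 RPKM in the treated libraries, and its part in the Fdft1 counts was not tested.

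**Figure D1:**
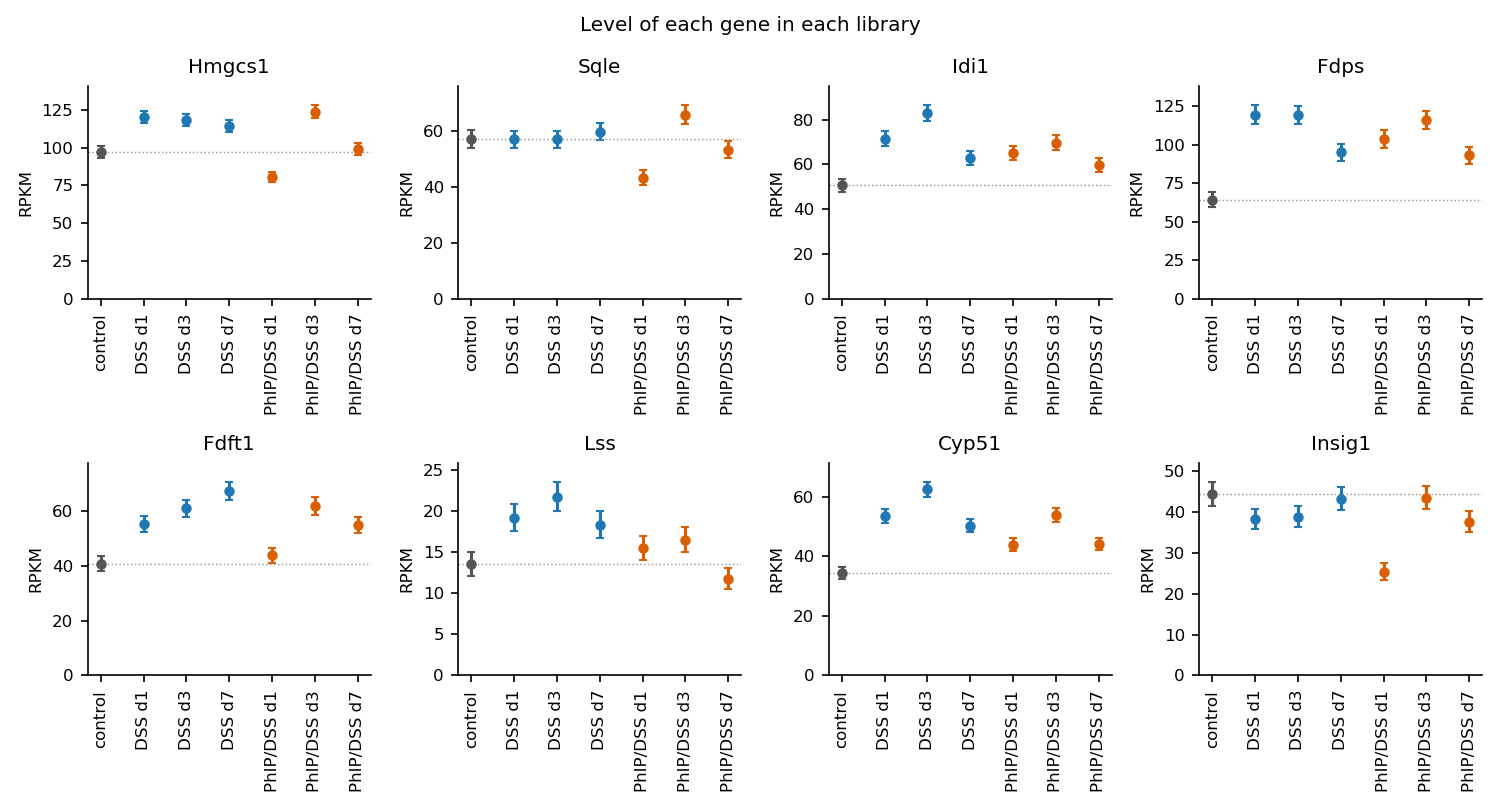
RPKM (vertical axis, from 0) of each of the 8 genes in the control (grey), the 3 DSS libraries (blue) and the 3 PhIP/DSS libraries (orange) on days 1, 3 and 7. Points are single libraries, bars are exact 95% Poisson intervals for counting error only, and the dotted line is the control level: Idi1, Fdps, Fdft1 and Cyp51 lie above it in 6 of 6 treated libraries, and Insig1 lies below it.

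The pathway begins with Hmgcs1, which encodes the enzyme that makes HMG-CoA in the cytosol. Its level was 97.2 RPKM in the control, 120.0, 118 and 114 RPKM on days 1, 3 and 7 of DSS, and 80.7, 124 and 99.1 RPKM on the same days of PhIP/DSS. Hmgcs1 was thus above the control in 5 of 6 treated libraries and lowest in the PhIP/DSS day 1 library. The DSS libraries were alike within counting error, and PhIP/DSS day 7 overlapped the control.

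Idi1 interconverts the C5 isoprenoid building blocks and Fdps joins them to farnesyl diphosphate, the branch point towards squalene, ubiquinone and prenylated proteins. Idi1 stood at 50.6 RPKM in the control, at 71.4, 82.7 and 62.7 RPKM on the DSS days, and at 65.1, 69.6 and 59.9 RPKM on the PhIP/DSS days. Every treated library exceeded the control, and DSS day 3 stood above all others. Fdps was at 64.3 RPKM in the control, 119.5, 119.3 and 95.2 RPKM on the DSS days, and 103.7, 116 and 93.2 RPKM on the PhIP/DSS days. No treated library overlapped the control for Fdps, and both day 7 libraries were the lowest of the treated. Its ratio to the control, 1.45 to 1.86, included the largest ratio of any of the 8 genes in any library.

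Fdft1, squalene synthase, commits farnesyl diphosphate to sterols. Its level was 40.7 RPKM in the control, 55.3, 61.0 and 67.3 RPKM on the DSS days and 43.8, 61.8 and 54.8 RPKM on the PhIP/DSS days. All treated libraries were above the control, but the PhIP/DSS day 1 value overlapped it within counting error, with a ratio of 1.08 (95% interval 0.983 to 1.18). Sqle, squalene epoxidase, is a rate-limiting step of the later pathway. Sqle was at 57.2 RPKM in the control, 57.0, 57.0 and 59.7 RPKM on the DSS days, and 43.3, 65.7 and 53.2 RPKM on the PhIP/DSS days. The DSS libraries could not be told from the control, whereas PhIP/DSS day 1 was lower and PhIP/DSS day 3 higher than it.

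Lss cyclises the epoxide to lanosterol. With 13.5 RPKM in the control, Lss reached 19.1, 21.7 and 18.3 RPKM on the DSS days and 15.5, 16.5 and 11.7 RPKM on the PhIP/DSS days. The DSS libraries were all above the control and, by value, above the PhIP/DSS libraries, and PhIP/DSS day 7 was the lowest of the 7, though its interval overlapped the control. Cyp51 removes the 14-alpha methyl group of lanosterol. It was at 34.3 RPKM in the control, 53.6, 62.4 and 50.3 RPKM on the DSS days and 43.9, 53.9 and 44.1 RPKM on the PhIP/DSS days. All 6 treated values lay above the control beyond counting error.

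Insig1 went the other way. Its level was 44.3 RPKM in the control, 38.2, 38.8 and 43.2 RPKM on the DSS days and 25.3, 43.4 and 37.5 RPKM on the PhIP/DSS days. All 6 treated values were below the control, 2 of them (DSS day 7 and PhIP/DSS day 3) within counting error, and with TMM scaling, which adjusts for library composition, DSS day 7 came out at 1.00 times the control. The low value of the PhIP/DSS day 1 library, 0.572 times the control (95% interval 0.514 to 0.635), stood apart from the other 6.

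Counted over the genes, 4 of 8 (Idi1, Fdps, Fdft1 and Cyp51) were above the control in all 6 treated libraries, against a background of 25.4% of the 12061 genes tested, and Insig1 alone was below it in all 6, against 29.7%. The same 4 genes were above it with TMM scaling, and none was below it in all 6. All treated libraries share the single control, so these counts hold for that library and no more. Summed over the 8 genes, the level was 402 RPKM in the control, 534, 561 and 511 RPKM on the DSS days and 421, 551 and 453 RPKM on the PhIP/DSS days.

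**Figure D2:**
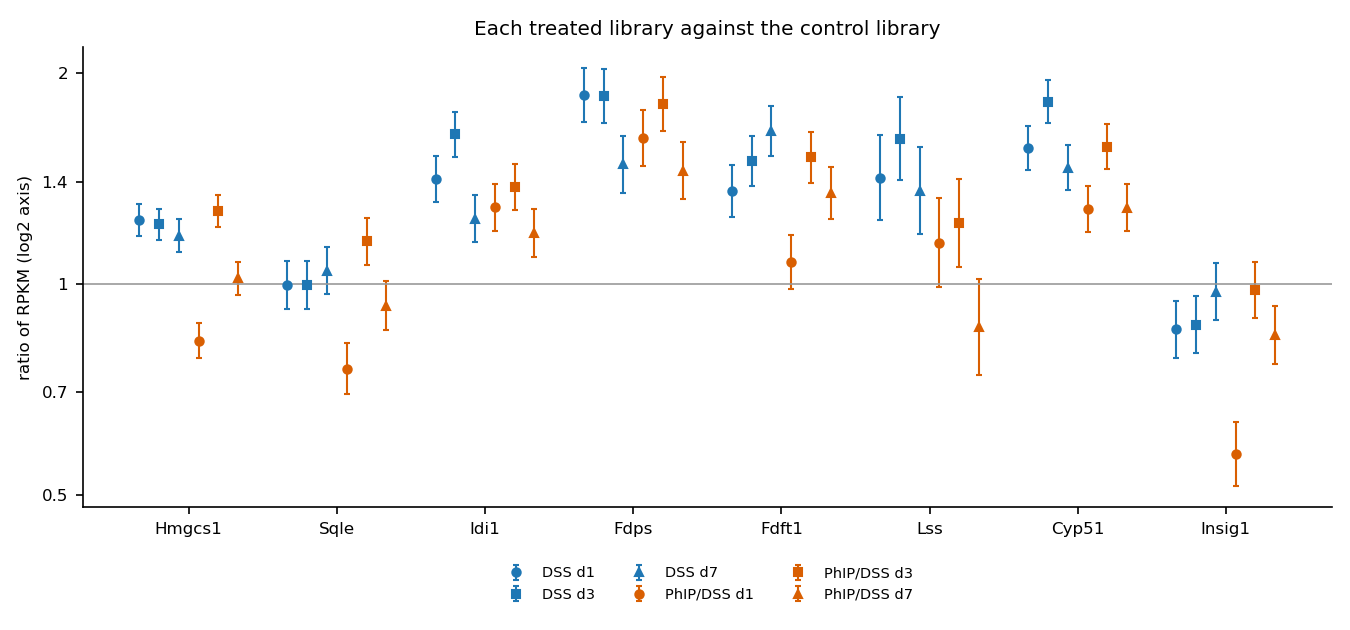
Ratio of RPKM in each treated library to the control library (log2 axis) for the 8 genes, DSS in blue and PhIP/DSS in orange, with circles for day 1, squares for day 3 and triangles for day 7. Bars are exact 95% intervals for counting error only: the Fdps ratios run from 1.45 to 1.86, and the lowest point is Insig1 at 0.572 in PhIP/DSS day 1.

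Library by library, the members' median ratio to the control was 1.38, 1.55 and 1.30 on days 1, 3 and 7 of DSS and 1.11, 1.32 and 1.10 in PhIP/DSS, while the median of all genes tested lay between 0.961 and 1.01. In DSS day 1, 2 of 8 genes were at least 1.5-fold higher (Fdps and Cyp51), against 14.8% of all genes. There were 4 (Idi1, Fdps, Lss and Cyp51) in DSS day 3, against 14%, and Fdft1 alone in DSS day 7, against 12.9%. In PhIP/DSS day 1 Fdps was that much higher (22.9% of all genes) and Insig1 that much lower (19.9%). In PhIP/DSS day 3 the genes were Fdps, Fdft1 and Cyp51 (11.2%), and in PhIP/DSS day 7 there was none (13%). No gene of the 8 differed 2-fold from the control in any library. With TMM scaling Fdft1 (1.53) joined the 4 genes in DSS day 3, and Fdps and Cyp51 joined Fdft1 in DSS day 7.

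Ratios between genes of the pathway are given as a description. The ratio of Fdps to Insig1 was 1.45 in the control and 3.13, 3.08 and 2.20 on the DSS days. On the PhIP/DSS days it was 4.09, 2.67 and 2.49. That it was above the control in every treated library follows from Fdps lying above and Insig1 below the control in each. Cyp51 relative to Sqle, 2 later enzymes, was 0.600 in the control and 0.819 to 1.10 in the treated libraries. These ratios of RPKM do not depend on how libraries are scaled. The pairs were picked by hand, and no share over all pairs of genes was computed. Across the 7 libraries, as a description only, the log2(RPKM + 1) profiles of Idi1, Fdps and Cyp51 were alike (Pearson r of 0.956 for Idi1 with Cyp51, 0.927 for Idi1 with Fdps and 0.910 for Fdps with Cyp51). Sqle was most like Insig1 (0.929) and Hmgcs1 (0.884), and Fdps and Insig1 were at r = -0.25. All libraries share these depths, and the single control weighs on each value: over the 6 treated libraries alone, Fdps and Insig1 were at 0.120 and Idi1 and Cyp51 at 0.902. Over those 6, Insig1 was at 0.962 with Sqle, 0.952 with Fdft1 (0.420 over all 7) and 0.908 with Hmgcs1. It was at 0.543 with Cyp51, 0.254 with Lss and 0.146 with Idi1. Fdps with Fdft1 was at 0.0575, against 0.619 over all 7.

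The comparison of treated with control mice was then fitted across all 12061 genes with edgeR's quasi-likelihood test, with the 2 arms of a day as the only repeated measure and a term for PhIP. No condition had a second library, so the spread is the change between days of the difference between PhIP/DSS and DSS pooled libraries. An effect of PhIP that differs by day therefore counts as spread. In this fit 2 residual degrees of freedom remained, and the control, with no replicate, is assumed to vary like the treated. Over the mean of days 1, 3 and 7, Fdps was higher by a log2 fold change of 0.75 (SE 0.11, edgeR adjusted p = 0.0822). Cyp51 was higher by 0.59 (SE 0.09, adjusted p = 0.0896), Fdft1 by 0.50 (SE 0.14, adjusted p = 0.129) and Idi1 by 0.45 (SE 0.10, adjusted p = 0.112). Lss, at 0.34 (SE 0.14), Hmgcs1, at 0.17 (SE 0.18), Sqle, at -0.02 (SE 0.17), and Insig1, at -0.23 (SE 0.20), had edgeR adjusted p of 0.220, 0.571, 0.948 and 0.497.

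None of the 8 genes thus passed an edgeR adjusted p of 0.05 over the mean of days, against 21 of 12061 genes or 0.174%. At an unadjusted p under 0.05, 4 of 8 were higher (Fdps, Cyp51, Idi1 and Fdft1), against 12.8% of all genes, and none was lower, against 13.2%. DESeq2 called 2 (Fdps and Cyp51), against 6.91% of all genes. The members' median log2 fold change was 0.39, against 0.005 over all genes. The call turned on single libraries: without DSS day 1, edgeR called Cyp51, Fdft1, Fdps and Idi1 higher (adjusted p between 0.00239 and 0.0284), against 29.1% of all genes. Leaving out PhIP/DSS day 1 instead gave the same 4 (0.00174 to 0.0243), against 20.2%. Over all settings the adjusted p ran from 0.000906 to 0.354 for Fdps and from 0.00415 to 0.354 for Cyp51.

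By day, the fitted value against the control was highest on day 3 for all 7 enzymes. On day 3 the log2 fold changes were 0.90 for Fdps (SE 0.12), 0.78 for Cyp51 (SE 0.11), 0.62 for Fdft1 (SE 0.15), 0.61 for Idi1 (SE 0.11), 0.51 for Lss (SE 0.16), 0.35 for Hmgcs1 (SE 0.21), 0.13 for Sqle (SE 0.20) and -0.08 for Insig1 (SE 0.24). On day 1 they were 0.79 for Fdps, 0.49 for Cyp51, 0.42 for Idi1, 0.34 for Lss, 0.27 for Fdft1, 0.02 for Hmgcs1, -0.20 for Sqle and -0.51 for Insig1. On day 7 they were 0.60 for Fdft1, 0.58 for Fdps, 0.48 for Cyp51, 0.30 for Idi1, 0.15 for Hmgcs1 and Lss, 0.01 for Sqle and -0.11 for Insig1. The members' median was 0.30, 0.56 and 0.23 on days 1, 3 and 7, against 0.009, 0.007 and -0.01 over all genes.

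None of the 8 passed an edgeR adjusted p of 0.05 on any single day, and neither did any other gene (0.0% on each day). At an unadjusted p under 0.05, 3 of 8 were higher on day 1 (Fdps, Cyp51 and Idi1), against 16.4% of all genes. On day 3 there were 5 (with Fdft1 and Lss), against 10.3%, and on day 7 there were 4 (Fdps, Cyp51, Fdft1 and Idi1), against 9.22%. DESeq2 called 2 on day 1 (Fdps and Cyp51, against 10.4% of all genes), 3 on day 3 (with Idi1, against 3.58%) and 0 on day 7 (against 4.0%). The same 2 libraries decided the edgeR calls. Without DSS day 1, edgeR called 4 on day 1 (Insig1 lower among them), 5 on day 3 and 3 on day 7, against 35.5%, 17.8% and 15.7% of all genes. Without PhIP/DSS day 1 it called 2, 5 and 3, against 12.4%, 18.8% and 16.7%. Day 1 against control also called Fdps alone among genes with at least 10 reads in all libraries (edgeR adjusted p = 0.0462, 5.91% of all genes) and without the PhIP term (0.0365, 10.8% of all genes).

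Between days, all 8 genes were fitted higher on day 3 than on day 1 (median log2 fold change 0.31, against -0.004 over all genes, of which 49.3% were fitted higher). The median was 0.18 without PhIP/DSS day 1 and 0.14 without PhIP/DSS day 3. In the DSS arm, days 1 and 3 differed little for Hmgcs1 (120.0 and 118 RPKM), Sqle (57.0 and 57.0), Fdps (119.5 and 119.3) and Insig1 (38.2 and 38.8). Idi1, Fdft1, Lss and Cyp51 were higher on DSS day 3 than on DSS day 1. The differences were 0.43 for Insig1 (SE 0.19), 0.35 for Fdft1 (SE 0.12), 0.34 for Sqle (SE 0.16), 0.33 for Hmgcs1 (SE 0.17) and 0.29 for Cyp51 (SE 0.08), with smaller values for the rest. None passed an edgeR adjusted p of 0.05 (0.0% of all genes did). At an unadjusted p under 0.05, Fdft1 and Cyp51 were higher, against 5.8% of all genes, and DESeq2 called 0 of 8 (0.605% of all genes). Without DSS day 1, which leaves PhIP/DSS as the only day 1 library, edgeR called Hmgcs1 and Insig1 higher (adjusted p = 0.0322 and 0.0270), 2 of 8 against 12.3% of all genes.

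From day 3 to day 7 all 8 were fitted lower (median -0.25, against -0.004 over all genes, of which 50.8% were fitted lower). Lss differed by -0.36 (SE 0.13), Fdps by -0.32 (SE 0.09), Idi1 by -0.31 (SE 0.09), Cyp51 by -0.30 (SE 0.08) and Fdft1 by -0.02 (SE 0.12). The edgeR adjusted p was 0.851 for the first 4, no gene of all passed (0.0%), and DESeq2 called none of the 8 (0.232% of all). At an unadjusted p under 0.05 these 4 were lower, against 2.84% of all genes. Without PhIP/DSS day 3, the fitted sign of Hmgcs1, Sqle, Fdft1 and Insig1 turned. Day 7 against day 1 split the genes, with Insig1 at 0.39 (SE 0.19) and Fdft1 at 0.34 (SE 0.12) higher and Fdps at -0.21 (SE 0.09) lower. None passed the edgeR adjusted p (0.0% of all genes), although Fdft1 alone had an unadjusted p under 0.05, against 12.3% of genes higher, and DESeq2 called none of the 8 (5.83% of all). Without DSS day 1, edgeR called Insig1 higher (adjusted p = 0.0204), 1 of 8 against 24.8% of all genes.

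PhIP/DSS was next compared with DSS on the same day, 1 library against 1, so these ratios have no replicate check. On day 1 all 8 were lower in PhIP/DSS, with ratios of 0.664 for Insig1, 0.672 for Hmgcs1, 0.759 for Sqle, 0.793 for Fdft1, 0.808 for Lss, 0.819 for Cyp51, 0.867 for Fdps and 0.911 for Idi1. Each of these 95% intervals lay below 1. On day 3 the genes divided: Sqle at 1.15 (1.07 to 1.24) and Insig1 at 1.12 (1.02 to 1.23) were higher, Lss at 0.758, Idi1 at 0.842 and Cyp51 at 0.863 were lower, and Hmgcs1, Fdft1 and Fdps had intervals that included 1. On day 7 all 8 were lower again, from 0.639 for Lss (0.553 to 0.738) to 0.979 for Fdps, and the intervals of Fdps and Idi1 included 1. A ratio at least 1.5-fold lower was seen for Insig1 on day 1 (6.31% of all genes), for none on day 3 (7.35%) and for Lss on day 7 (5.66%).

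**Figure D3:**
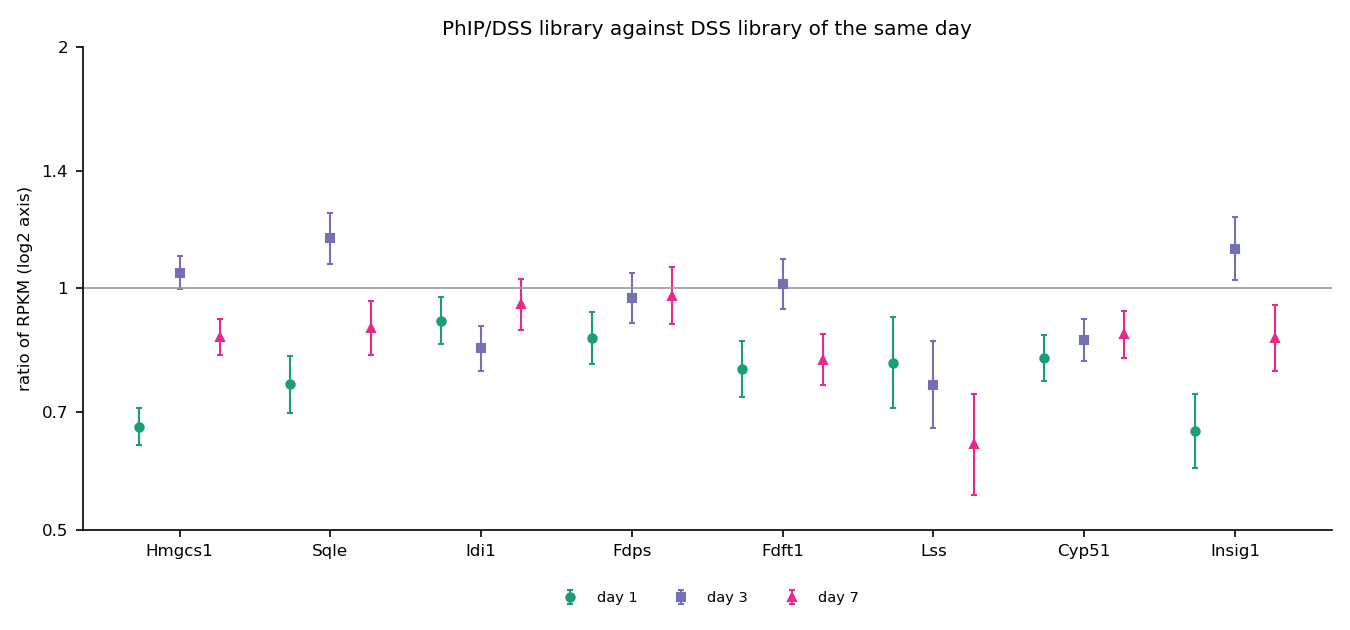
Ratio of RPKM in the PhIP/DSS library to the DSS library of the same day (log2 axis) for the 8 genes, with circles for day 1, squares for day 3 and triangles for day 7 and exact 95% intervals for counting error only. All 8 points lie below 1 on days 1 and 7 and 4 of 8 on day 3, and Lss on day 7 is the lowest at 0.639.

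Idi1, Fdps, Lss and Cyp51 were lower in PhIP/DSS on all 3 days, 4 of 8 against 10.2% of all genes (12.3% with TMM scaling, for the same 4 genes). PhIP/DSS day 1 was the lowest treated library for 5 of 8, against 26.9%. That library also had the highest fat, macrophage, fibroblast and proliferation marker sums and the lowest goblet sum given above, and the part of those cells was not tested. The median ratio of the members was 0.800 on day 1, 0.993 on day 3 and 0.873 on day 7, against 1.01, 1.01 and 1.02 over all genes.

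Fitted over the 3 days, all 8 were lower in PhIP/DSS (51.8% of all genes were), with a median log2 fold change of -0.22 against -0.007 over all genes. Lss was at -0.47 (SE 0.10), Hmgcs1 and Cyp51 at -0.25 (SE 0.14 and 0.07), Insig1 at -0.23 (SE 0.16), Fdft1 at -0.22 (SE 0.10), Idi1 at -0.17 (SE 0.07), Sqle at -0.14 (SE 0.13) and Fdps at -0.11 (SE 0.08). The edgeR adjusted p was 0.998 for each, and no gene of all was called (0.0%). At an unadjusted p under 0.05, Lss and Cyp51 were lower, against 1.66% of all genes, and DESeq2 called none of the 8 (0.149% of all). Over all settings the Lss value stayed between -0.54 and -0.36, with edgeR adjusted p as low as 0.0550 without PhIP/DSS day 1. No dose of PhIP other than 100 mg/kg was compared.

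**Figure D4:**
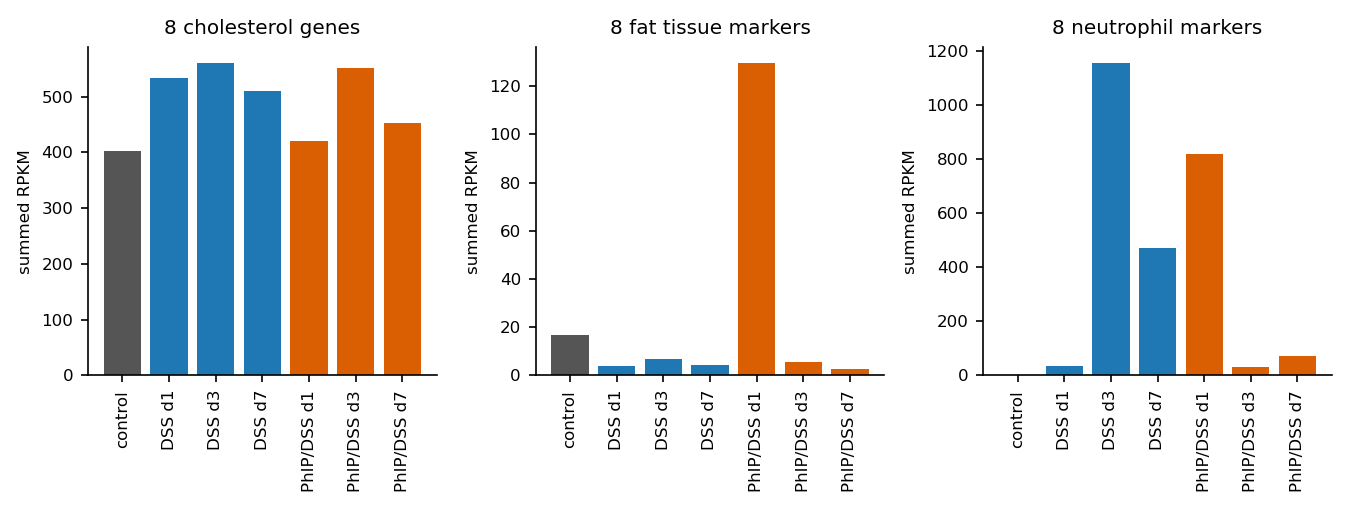
Summed RPKM (bars from 0) of the 8 cholesterol genes, 8 fat tissue markers and 8 neutrophil markers in each library, control in grey, DSS in blue and PhIP/DSS in orange. The cholesterol sum is lowest in the control (402) and in PhIP/DSS day 1 (421), which are also the libraries with the highest fat marker sums (16.9 and 129.8). PhIP/DSS day 7 comes next (453) and has the lowest fat marker sum (2.47). The part of fat tissue in the cholesterol sum was not tested. The neutrophil sum is highest in DSS day 3 (1155).

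Of 11 other enzymes of cholesterol synthesis, 9 were fitted higher over the mean of days (median 0.33, against 0.005 over all genes). None passed the edgeR adjusted p (0.174% of all genes did). DESeq2 called 1, Msmo1 (adjusted p = 0.0202), against 6.91% of all genes. Acat2, which makes the acetoacetyl-CoA that Hmgcs1 uses, was at 8.74 RPKM in the control, 15.7, 14.4 and 13.4 RPKM on the DSS days and 13.9, 14.7 and 14.2 RPKM on the PhIP/DSS days. Its fitted log2 fold change was 0.73 (SE 0.15, edgeR adjusted p = 0.101). Mvd, mevalonate diphosphate decarboxylase, was at 18.8 RPKM against 24.8 to 34.8 RPKM (0.70, SE 0.17, edgeR adjusted p = 0.118).

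All 6 treated libraries were above the control for 6 of the 11 (Nsdhl, Msmo1, Pmvk, Tm7sf2, Acat2 and Mvd), against 25.4% of all genes. All 6 were below it for 1, Ebp, against 29.7%. Ebp, which acts after the sterol ring has formed, and Nsdhl, Pmvk and Tm7sf2 are named after their values were seen. Ebp, the sterol isomerase, was at 70.2 RPKM against 49.6 to 61.4 RPKM (-0.32, SE 0.12, edgeR adjusted p = 0.195). Ebp was also below the control in all 6 with TMM scaling.

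**Figure D5:**
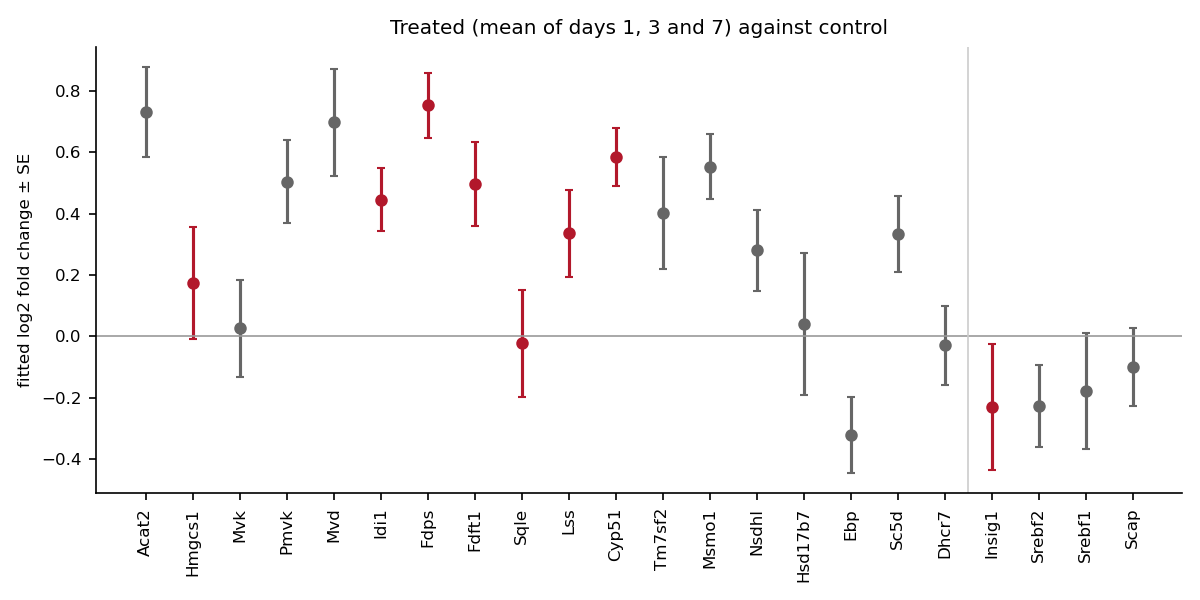
Fitted log2 fold change (± SE) of treated against control libraries over the mean of days 1, 3 and 7 for 18 synthesis enzymes in pathway order (left of the line) and 4 regulators (right of it), with the 8 genes of this account in red and others in grey. Fdps (0.75) is the highest of the 18 enzymes and Ebp (-0.32) the lowest.

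Among 11 genes of sterol sensing, 4 were fitted higher and 7 lower over the mean of days. None was called by edgeR or DESeq2 (0.174% and 6.91% of all genes were). Srebf2, which encodes SREBP2, was at 87.0 RPKM in the control, 76.7, 71.8 and 78.8 RPKM on the DSS days and 69.6, 79.0 and 65.9 RPKM on the PhIP/DSS days. All treated values were below the control, with a log2 fold change of -0.23 (SE 0.13, edgeR adjusted p = 0.333). Srebf1, whose product favours fatty acid synthesis, was at 31.7 RPKM against 21.5 to 31.0 RPKM (-0.18, SE 0.19, edgeR adjusted p = 0.569). Insig2, the second INSIG, was at 10.1 RPKM against 10.5 to 13.3 RPKM (0.22, SE 0.19, edgeR adjusted p = 0.495). Messenger levels of these regulators do not measure cleavage of SREBP2.

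Uptake and trafficking genes, 11 of 12 tested, were fitted higher in 5 and lower in 6 cases. None was called by edgeR and 3 were by DESeq2 (Lrp8, Mylip and Lipa), against 6.91% of all genes by DESeq2. Lrp8, a lipoprotein receptor, was at 0.751 RPKM against 1.61 to 3.52 RPKM (1.68, SE 0.26, edgeR adjusted p = 0.0883, DESeq2 adjusted p = 0.0103), and passed the filter on low values through the treated libraries. Mylip, a ubiquitin ligase induced by the sterol sensor LXR, was at 13.2 RPKM against 3.65 to 10.7 RPKM (-1.24, SE 0.22, edgeR adjusted p = 0.0930, DESeq2 adjusted p = 0.0434). Lipa, the lysosomal acid lipase that frees cholesterol from its esters, was at 17.7 RPKM against 27.6 to 38.1 RPKM (0.90, SE 0.20), with an adjusted p of 0.107 by edgeR and 0.0114 by DESeq2. All 6 treated libraries were above the control for 2 of the 11 genes tested (Lrp8 and Lipa), against 25.4% of all genes. They were all below it for 4 (Mylip, Npc2, Osbp and Stard4), against 29.7%.

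Efflux and storage genes were fitted higher in 6 of 12 and lower in 6. None was called by edgeR. DESeq2 called 1, Apoe (adjusted p = 0.0324), against 6.91% of all genes. Apoe is named after its values were seen. Abca1, the exporter that loads HDL, was at 1.49 RPKM in the control and 0.648 to 3.12 RPKM in the treated libraries, on both sides of it (0.37, SE 1.04, edgeR adjusted p = 0.843). Abcg5 and Abcg8, which together pump sterols into the gut lumen, were at 8.52 and 2.13 RPKM in the control. Abcg5 was at 1.21, 1.51 and 4.97 RPKM on the DSS days and 0.569, 3.93 and 7.93 RPKM on the PhIP/DSS days, lower on day 1 than on day 7 in both arms (mean of days -1.77, SE 0.52, edgeR adjusted p = 0.139). Abcg8 ran from 0.0638 to 2.07 RPKM (-1.79, SE 0.60, edgeR adjusted p = 0.162). Apoa1, the main protein of HDL, was at 0.521 RPKM against 1.07 to 9.60 RPKM (2.64, SE 1.07, edgeR adjusted p = 0.205), highest in the PhIP/DSS day 1 library, and passed the filter on low values through the treated libraries.

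In the neighbouring fatty acid branch, 6 of 14 genes were fitted higher and 8 lower. None was called by edgeR and 2 were by DESeq2 (Me1 and Acacb), against 6.91% of all genes by DESeq2. Me1, which supplies NADPH, was at 1.56 RPKM against 6.30 to 14.9 RPKM (2.69, SE 0.71, edgeR adjusted p = 0.125, DESeq2 adjusted p = 0.000613). Acacb, an acetyl-CoA carboxylase, was at 0.568 RPKM against 1.54 to 3.92 RPKM (2.29, SE 0.37, edgeR adjusted p = 0.0895, DESeq2 adjusted p = 0.000240) and passed the filter on low values through the treated libraries. Thrsp, a lipogenic gene of fat and liver, was at 1.49 RPKM in the control, 6.35 RPKM in PhIP/DSS day 1 and at most 0.115 RPKM in the other 5 libraries. It passed the filter on low values through the first 2, which were those with the most fat marker RNA. Below the control in all 6 treated libraries were 5 of the 14 (Acly, Acss2, Acaca, Fasn and Fads2), against 29.7% of all genes, and 4 with TMM scaling, without Acaca. Above it in all 6 were 4 of the 14 (Me1, Acacb, Fads1 and Mid1ip1), against 25.4%, and these 4 with TMM scaling too. Apart from Me1 and Acacb these genes are named after their values were seen.

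The isoprenoid branch that leaves the pathway at Fdps had 6 of 8 genes fitted higher over the mean of days, against 6088 of 12061 genes tested. Its median was 0.08, against 0.005 over all genes. On day 7 alone, 2 of the 8 were fitted higher and 6 lower. Over the mean of days, none was called by edgeR or DESeq2 (0.174% and 6.91% of all genes were). Ggps1, which makes geranylgeranyl diphosphate, was at 6.83 RPKM against 8.30 to 12.5 RPKM (0.57, SE 0.15, edgeR adjusted p = 0.126). Pdss1, which makes the ubiquinone tail, was at 16.8 RPKM against 14.05 to 25.2 RPKM (0.27, SE 0.13, edgeR adjusted p = 0.248). Pggt1b, a prenyltransferase subunit, was at 7.68 RPKM against 5.65 to 7.61 RPKM (-0.23, SE 0.19, edgeR adjusted p = 0.455). Of 6 genes listed under oxysterol enzymes 3 were tested, 1 higher (Dhrs9) and 2 lower (Cyp27a1 and Hsd3b7). None was called by edgeR and 1 was by DESeq2 (Dhrs9), against 6.91% of all genes by DESeq2. Dhrs9, a retinol and steroid dehydrogenase, was at 9.96 RPKM against 45.4 to 78.1 RPKM (2.65, SE 0.38), with an adjusted p of 0.0849 by edgeR and 2.61e-13 by DESeq2. It was also called by edgeR with at least 10 reads in all libraries (adjusted p = 0.0480), without the PhIP term (0.0391) and with levels by arm alone (0.0423). Those settings called 163 of 11484, 225 of 12061 and 45 of 12061 genes. Cyp27a1, which makes 27-hydroxycholesterol, was at 17.7 RPKM against 2.17 to 19.1 RPKM (-1.09, SE 0.47, edgeR adjusted p = 0.225), and Hsd3b7, a bile acid enzyme, at 14.2 RPKM against 9.31 to 10.6 RPKM (-0.52, SE 0.16, edgeR adjusted p = 0.150).

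The genes most like the 8 were sought among 12032 others by Pearson r with their mean standardised log2(RPKM + 1) profile over the 7 libraries. In order they were Slc39a11 (0.975), Cyb561 (0.973), Mpp3 (0.971), Snora65 (0.961), Ampd3 (0.950), Msmo1 (0.950), Brms1l (0.948), Acot11 (0.941), Rpap2 (0.936) and Dap (0.935). Of these, Snora65 lay near the filter of 1 RPKM in the control (1.11), PhIP/DSS day 1 (0.993) and PhIP/DSS day 7 (1.01). It reached at most 6.04 RPKM (PhIP/DSS day 3), so its r rests on a level near the floor. With 7 points 17 genes exceeded 0.9, and 4 of the 10 were shared with the 10 of highest Spearman rho. Msmo1, the sterol methyl oxidase after Cyp51, was the only 1 of the 10 on the pathway lists, at 69.9 RPKM in the control, 105.1, 120.1 and 108 RPKM on the DSS days and 81.6, 107 and 91.1 RPKM on the PhIP/DSS days. Slc39a11, a metal transporter gene, was at 32.6 RPKM in the control, 43.4, 48.1 and 41.3 RPKM in DSS and 35.2, 46.1 and 36.9 RPKM in PhIP/DSS. For single genes the most alike were Gdpd5 for Fdft1 (0.991), Blzf1 for Fdps (0.986), 8030462N17Rik for Sqle (0.984), Slc4a7 for Cyp51 (0.980), Vamp7 for Idi1 (0.976), Abcb9 for Hmgcs1 (0.961) and Rnf215 for Lss (0.948). Insig1 was closest to Mir5125 (0.993), which had only 4 to 10 reads per library.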

How the data were processed

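Oligo(dT)-enriched RNA of 7 pooled mouse libraries had been sequenced on an Illumina instrument, per the labels' protocols. The authors' tables hold, per the file headers, unique-read counts, gene length, RPKM and the percent of that length covered. Recomputing the deposited RPKM from reads, length and library total gave the same values (largest relative deviation 7.8e-14). The submitters' processing notes name mm10 and FastQC, and no aligner, counter, annotation or strand setting is named in the labels or headers. A gene missing from a table was given 0 reads. Identifiers were matched to symbols in a RefSeq table of GRCm38.p6, which named 17983 of 18036.

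The main test was edgeR 4.0.16 on the deposited counts of 12061 genes, those reaching 1 RPKM in 2 or more libraries (TMM, quasi-likelihood, levels for control and each day plus a PhIP term, 2 residual degrees of freedom, Benjamini-Hochberg over all genes, call at an adjusted p under 0.05). All 8 genes passed that filter. The common dispersion was 0.0563 and TMM factors were 0.980 to 1.02. Single libraries were compared by ratio of RPKM with exact 95% intervals (scipy 1.17.1), which cover counting error only. The reads carry no molecular identifiers, so PCR copies cannot be told apart and the intervals may be too narrow. Alternatives were DESeq2 1.42.0, RLE and total-count scaling, no filter, at least 10 reads in all libraries, limma 3.58.1 on log2(RPKM + 1) and log2(RPKM + 0.1), each library left out, no PhIP term, arm levels without day levels, a 2-fold threshold, TMM ratios and Spearman rho. The fitting code was run on simulated counts with a smaller dispersion than the data and no difference between days or arms. That run checked the code and not the error rate in these data.

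The 8 genes and the pathway lists were chosen with earlier results of these data known, and some list genes are not reported here. Named genes were all 8, the 3 of each pathway list with the largest absolute fold change over the mean of days, Srebf2, Srebf1 and Abca1, the 10 genes most like the 8 and the 1 most like each. Other pathway genes in the text were named after their values were seen. P-values rest on how the difference between PhIP/DSS and DSS pooled libraries changed between days, so an effect of PhIP that differs by day counts as spread. They do not measure the spread between mice.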

Additional observations from a re-analysis of the deposited data

How the results depend on the processing

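With 1 library per condition, no setting supplies a measure of the spread between mice, and a left-out library leaves its day with 1 library that is assumed to vary like the others. Counting error was small, so depth did not limit the 8 genes. The main design pairs the arms by day. With no replicate block (levels by arm alone), edgeR called 45 genes in place of 21 over the mean of days and 0 for PhIP/DSS against DSS, and 0 of the 8 in both. The median of the 8 was then 0.40 and -0.20.

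The number of the 8 genes called by edgeR was 0 in every comparison. On day 1 against control it was 2 by DESeq2 and 1 both with at least 10 reads and without the PhIP term, on day 3 it was 3 by DESeq2, and over the mean of days 2 by DESeq2 and 1 without the PhIP term. Leaving out a library gave 0 to 4 on day 1, 0 to 5 on day 3, 0 to 3 on day 7, 0 to 4 over the mean, 0 to 2 for day 3 against day 1 and 0 to 1 for day 7 against day 1. The causes were not tested. Fold 2 gave 0 genes in place of every count at 1.5-fold, and TMM gave 5 in DSS day 3 and 3 in DSS day 7.

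Counts over all genes moved too. DESeq2 gave 1258, 432, 482 and 834 for days 1, 3 and 7 and their mean, 73, 703 and 28 for day 3 against 1, 7 against 1 and 7 against 3, and 18 for PhIP/DSS against DSS. In the first 4 of these comparisons, no filter gave 6, 3, 29 and 50, at least 10 reads 679, 23, 51 and 163 (8 for day 7 against 1), and no PhIP term 1305, 27, 59 and 225 (57 for day 7 against 1). limma with 0.1 added gave 6, 16, 42 and 66, and with 1 added 2 on day 3, on day 7 and over the mean. Leaving out a library gave 0 to 4280, 0 to 2271, 0 to 2010 and 0 to 3514 in those 4, 0 to 1481, 0 to 2986 and 0 to 103 between days, and 0 to 324 for PhIP/DSS against DSS.

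Fitted values that changed sign were mostly near 0. Sqle turned on day 7 with total-count scaling (-0.020) and with limma (-0.019 with 1 added, -0.020 with 0.1 added), and over the mean with no filter (0.0013). The rest turned when a library was left out, and their ranges over the left-out libraries follow. On day 1 Hmgcs1 ran from -0.24 to 0.25. On day 3 Sqle ran from -0.12 to 0.37 and Insig1 from -0.37 to 0.20. On day 7 Sqle ran from -0.038 to 0.052 and Lss from -0.010 to 0.30. Over the mean Sqle ran from -0.11 to 0.055 and Abca1 from -0.34 to 0.72. For day 7 against day 1 Hmgcs1 ran from -0.098 to 0.39 and Cyp51 from -0.043 to 0.027. For day 7 against day 3 Hmgcs1 ran from -0.41 to 0.032, Sqle from -0.36 to 0.12, Fdft1 from -0.18 to 0.14 and Insig1 from -0.31 to 0.24. The median of the 8 for day 3 against day 1 ran from 0.14 to 0.41.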
